A study of Mus musculus with 4 samples.

Results

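Integrins are cell surface receptors made of an alpha and a beta subunit, and they tie cells to the extracellular matrix and to each other. Nephronectin, the product of Npnt, is a secreted matrix protein best known as a ligand of the receptor that Itga8 forms with Itgb1, and signaling through this pair guides the growth of the kidney epithelium. Itga4 and Itga9 encode alpha subunits that pair with Itgb1 and bind Vcam1 and fibronectin or other matrix proteins, Itga11 encodes a collagen receptor subunit, and Itgav and Itgb8 together form a receptor that releases active TGF-beta from its latent complex. The expression of these 9 genes, of the 32287 features in each matrix, was followed here across the cells of the embryonic mouse penis. The genes were named as a list: the integrin subunits, nephronectin and Vcam1 were selected on measured values, the differences between DTA+ and DTA- cells seen earlier in these data and in particular the higher Itga4 level in periurethral mesenchyme, so differences between the genotypes in these genes are given as a description and nothing is read from how many of them passed a threshold.

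Single-cell mRNA libraries were made from male genitalia at embryonic day 16.5, with 2 libraries from DTA- embryos (labeled WT, Nr5a1cre- x DTA f/+) and 2 from DTA+ embryos (Nr5a1cre+ x DTA f/+). All embryos carried the floxed-stop diphtheria toxin allele, and Cre driven by an Nr5a1 transgene switched the toxin on in DTA+ embryos only, which kills cells of the Nr5a1 lineage, though per the study a part of them remained. The Cre is not restricted to the penis, and the study describes affected testes and adrenals as well, so loss of the lineage in the penis and its loss elsewhere cannot be told apart here. The comparison addresses how the remaining cells differ when Nr5a1-lineage cells are lost. The labels do not say how many embryos went into a library, so p-values measure the spread between these libraries only. The matrices held 11343 to 12580 cells per library and 50779551 to 73577028 unique molecular identifiers (UMIs, each standing for 1 captured mRNA molecule). After the study's limits on depth and on mitochondrial and hemoglobin reads, 31132 of 47040 cells remained, 6573 to 8810 per library, with a median of 3551 to 4700 UMIs per cell. Between 12 and 21 cell barcodes were shared by any 2 libraries after filtering. Nr5a1 itself gave 1 or 2 UMIs in each library at this age, so it does not check the labels. The tdTomato transcript was at 0 in both DTA- libraries, while 19.37% and 20.53% of cells of the DTA+ libraries had a tdTomato UMI. The labels do not name this reporter, which the study's methods place in the sires of the ablation cross. The study describes the transcript as leaky, with a low background in most cells, and set a count threshold for lineage cells. These shares of cells with any UMI are therefore not shares of Nr5a1-lineage cells.

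Cells of all libraries were clustered together into 27 clusters, and clusters whose genes matched known markers were called by that name with the suffix -like. The periurethra-like cells, 2554 in all, came from 2 clusters with 5 of 7 periurethral markers each (Foxf1, Foxf2 and Ptch1 in both, Foxl2 and Sall3 in cluster 10, Gli1 and Hhip in cluster 11). Clusters that matched no list are given by number and leading genes. Counts were summed per library within a population and expressed as CPM. This is the count per 1e+06 UMIs of that sum, after the sum was scaled by edgeR's TMM factor (trimmed mean of M-values) for the library. On this scale a gene can be compared between libraries but not with other genes. A gene was called when edgeR's quasi-likelihood test gave an adjusted p under 0.05 over all genes of that population. 20 populations had at least 20 cells in every library and were tested. Not tested were smooth muscle-like cells and clusters 12 and 13, both with Akap12 and Dlk1 among their leading genes. Cluster 12 held 251 and 806 DTA- cells against 30 and 10 DTA+ cells, and cluster 13 held 98 and 10 against 288 and 656. The clustering itself used Itga4, Itga8 and Npnt among its 2000 variable genes. In bulk sums of this kind, fewer expressing cells and less mRNA per cell cannot be told apart. The shares of cells with a UMI do not settle this, because at low counts such a share also rises with mRNA per cell.

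In GRCm38 (GENCODE vM21 annotation) the ligand genes are Npnt (ENSMUSG00000040998) on chromosome 3 from 132881745 to 132950291, minus strand, and Vcam1 (ENSMUSG00000027962) on chromosome 3 from 116109949 to 116129688, minus strand. The alpha subunit genes are Itga4 (ENSMUSG00000027009) on chromosome 2 from 79255426 to 79333123, plus strand, Itga8 (ENSMUSG00000026768) on chromosome 2 from 12106632 to 12301922, minus strand, Itga9 (ENSMUSG00000039115) on chromosome 9 from 118606690 to 118901003, plus strand, Itga11 (ENSMUSG00000032243) on chromosome 9 from 62677826 to 62783982, plus strand, and Itgav (ENSMUSG00000027087) on chromosome 2 from 83724397 to 83806916, plus strand. The beta subunit genes are Itgb1 (ENSMUSG00000025809) on chromosome 8 from 128685654 to 128733200, plus strand, and Itgb8 (ENSMUSG00000025321) on chromosome 12 from 119158022 to 119238802, minus strand. Cerkl overlaps Itga4 on the opposite strand, and counts cover whole genes, so no exon is singled out. The 250 bases before the start site of each are shown because Itga4 had the largest difference among the members in periurethral mesenchyme and Npnt differed in the most populations. RefSeq promoter windows (GRCm38.p6) were at hand for 8 of the 9 genes, Vcam1 being the one without. Capitals mark each GC box, GGGCGG or its reverse complement CCGCCC, a letter pattern bound by Sp factors.
Itga4, chr2:79255176-79255425, plus strand: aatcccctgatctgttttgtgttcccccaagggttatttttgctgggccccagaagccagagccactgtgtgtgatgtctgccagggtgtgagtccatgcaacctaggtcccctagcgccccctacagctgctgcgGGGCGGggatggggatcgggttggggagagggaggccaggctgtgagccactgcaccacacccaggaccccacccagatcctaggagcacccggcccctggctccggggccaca
Npnt, chr3:132950292-132950541, minus strand: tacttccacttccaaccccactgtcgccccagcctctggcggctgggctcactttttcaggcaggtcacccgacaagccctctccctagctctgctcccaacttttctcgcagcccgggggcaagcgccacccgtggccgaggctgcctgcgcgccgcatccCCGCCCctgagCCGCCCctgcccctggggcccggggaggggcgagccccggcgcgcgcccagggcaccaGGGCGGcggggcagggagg
The Itga4 window held 1 GC box, 114 bases before the start, and the Npnt window held 3, at 88, 77 and 19 bases before the start. A GC box was present in 32.7% of the 32851 RefSeq windows of this length. Neither window held a TATA box (TATAAA, either strand, in 12.4% of windows) or the steroid receptor half-site AGAACA (either strand, in 16.1% of windows). These matches describe the letters only. G and C made up 64% of the Itga4 window and 74% of the Npnt window.

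Itga4, which encodes the alpha subunit of a Vcam1 and fibronectin receptor, had the largest log2 fold change of the 8 members tested in the periurethra-like cells. Its level was 18.95 and 34.2 CPM in the DTA- libraries and 120.5 and 90.8 CPM in the DTA+ libraries. Both DTA+ libraries lay above both DTA- libraries, and the log2 fold change was 2.01 ± 0.26 (SE, n = 2 and 2). Here and below, the SE of a log2 fold change is its size divided by the square root of the test's F statistic. It is not the SD between libraries. Of the 11070 genes tested in these cells 47.6% did not overlap between genotypes, as did 4 of the 8 members tested. An Itga4 UMI was found in 7.44% and 9.55% of DTA- periurethra-like cells and in 27% and 21.2% of DTA+ cells, although the DTA- cells were deeper, with medians of 4926 and 3898 UMIs against 3501.5 and 3671.5. With every cell thinned to 1000 UMIs, the shares were 2.31% and 3.24% in DTA- and 10.5% and 8.06% in DTA+ libraries. Corpus cavernosum-like cells, at medians of 3181 to 5182 UMIs, gave Itga4 UMIs in 0.684% to 2.56% of cells. Whether these UMIs are free mRNA was not tested, so the shares are no measure of the background in periurethra-like cells. The Itga4 difference was present in both periurethra-like clusters, at 27.7 and 40.7 against 133.4 and 97.8 CPM in the Foxl2 and Sall3 cluster (log2 fold change 1.77 ± 0.25) and at 10.2 and 27.7 against 95.2 and 83.4 CPM in the Gli1 and Hhip cluster (2.28 ± 0.31).

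**Figure D1:**
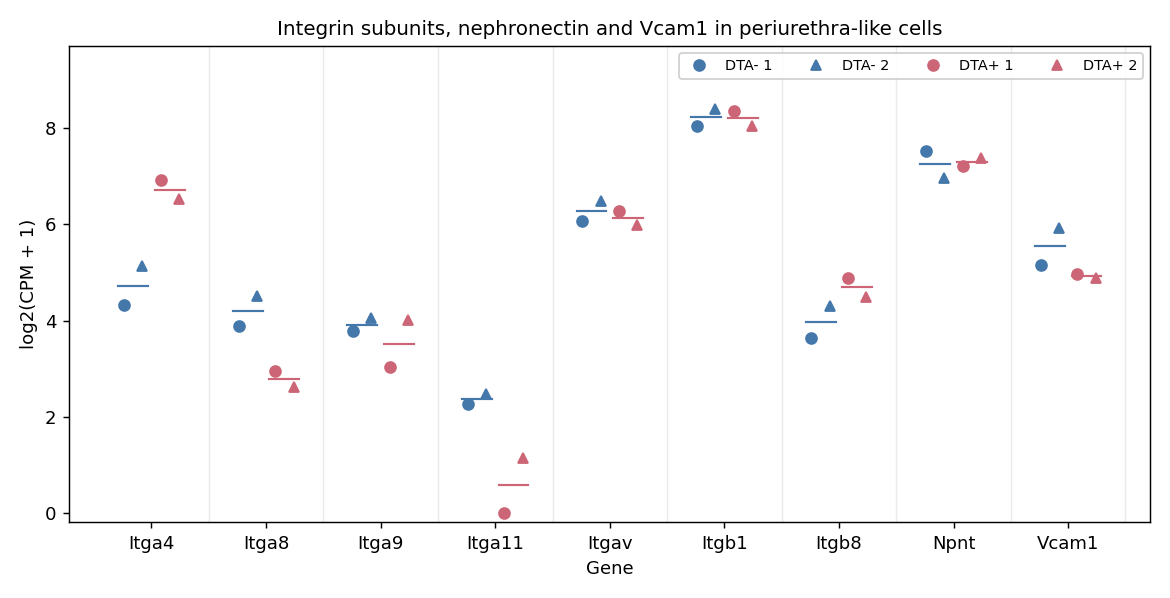
Level of each of the 9 genes in periurethra-like cells, as log2(CPM + 1) on the vertical axis, for each library (circles replicate 1, triangles replicate 2, blue DTA-, red DTA+). Horizontal bars are means of the 2 libraries. Itga4 is at 18.95 and 34.2 CPM in DTA- and at 120.5 and 90.8 CPM in DTA+ libraries, Itga8 is lower in both DTA+ libraries, and Npnt, Itgb1, Itgav and Itga9 overlap between genotypes.

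Itga8, the alpha subunit of the nephronectin receptor, moved the other way in these cells. It was at 13.8 and 21.9 CPM in DTA- and at 6.67 and 5.13 CPM in DTA+ libraries, from 40, 48, 13 and 17 UMIs, with a log2 fold change of -1.60 ± 0.36. The groups did not overlap. The gap was wider in the Foxl2 and Sall3 cluster than in the Gli1 and Hhip cluster. In the Foxl2 and Sall3 cluster Itga8 was at 15.9 and 31.4 against 5.96 and 3.39 CPM (log2 fold change -2.33 ± 0.48). These values come from 23, 34, 8 and 6 UMIs. In the Gli1 and Hhip cluster Itga8 was at 11.6 and 12.5 against 8.50 and 7.17 CPM (-0.65 ± 0.48, not called). The difference between the clusters was not tested. For both clusters together DESeq2 gave -1.61 and did not call Itga8. After thinning Itga8 did not pass the filter on low counts. Without DTA- replicate 2 the value for both clusters together was -1.25 and not called.

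Among the members, none of the other integrin subunits was called in the periurethra-like cells as a whole. Itgb1, the shared beta partner of most of these alpha subunits, was at 264.3 and 340.0 CPM in DTA- and 328.8 and 265.1 CPM in DTA+ libraries, so the genotypes overlapped fully (log2 fold change -0.03 ± 0.17). Itgav was at 65.8 and 89.5 against 76.4 and 62.1 CPM, and Itga9 was at 12.75 and 15.5 against 7.18 and 15.1 CPM, both overlapping. Itgb8 was at 11.4 and 18.7 CPM in DTA- and 28.7 and 21.4 CPM in DTA+ libraries, with no overlap and a log2 fold change of 0.74 ± 0.29 that was not called. Within the Gli1 and Hhip cluster it was called, at 12.3 and 21.4 against 49.3 and 31.3 CPM (1.2 ± 0.34). Itga11, the collagen receptor subunit, had 11 and 10 UMIs in DTA- and 0 and 4 UMIs in DTA+ libraries and did not pass the filter on low counts, so no fold change was fitted. These counts did not overlap between genotypes.

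Neither ligand, Npnt or Vcam1, was called in the same cells. Npnt was at 184.7 and 123.7 CPM in DTA- and 148.2 and 165.6 CPM in DTA+ libraries (log2 fold change 0.02 ± 0.19), with full overlap. Its level differed instead between the 2 periurethra-like clusters, at 29.0 and 32.4 CPM in the Foxl2 and Sall3 cluster and 337.3 and 210.7 CPM in the Gli1 and Hhip cluster of DTA- libraries, a difference the clustering itself could use. Vcam1, a cell surface ligand of the Itga4 receptor, was at 34.5 and 60.2 CPM in DTA- and 30.3 and 28.7 CPM in DTA+ libraries. The groups did not overlap, and the log2 fold change of -0.67 ± 0.26 was not called. In the Foxl2 and Sall3 cluster Vcam1 was at 53.9 and 98.0 against 31.3 and 40.1 CPM, also without overlap (-1.05 ± 0.29, not called).

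In the periurethra-like cells 388 of 11070 genes were called, 3.5% (3.64% in the Foxl2 and Sall3 cluster and 3.81% in the Gli1 and Hhip cluster), and 2 of the 8 members tested, Itga4 and Itga8, were among them. The median log2 fold change was -0.10 over the 8 members and -2.51e-05 over all genes. Of the 10 leading genes of each cluster, 4 in the Foxl2 and Sall3 cluster and 8 in the Gli1 and Hhip cluster were themselves called between genotypes, so the cells of both clusters differed between genotypes in genes that define them. Markers of other Itga4-bearing cells stood as follows in the periurethra-like sums. The 6 macrophage markers summed to 10.7 and 11.9 CPM in DTA- and 5.13 and 3.92 CPM in DTA+ libraries, against 12510 to 13240 CPM in the macrophage-like cells. The 6 neural markers summed to 4.82 and 4.11 against 8.21 and 9.65 CPM, with Sox10 at 0 in all libraries, the 6 pericyte markers to 71.7 and 84.0 against 100.5 and 95.6 CPM, and the 6 mast cell markers to 19.6 and 10.0 against 21.0 and 6.94 CPM. The 6 distal glans markers summed to 949.4 and 871.7 against 1469 and 1471 CPM, with 3 of 6 called higher. The 6 general prepuce markers summed to 504.5 and 474.6 against 840.1 and 784.9 CPM with none called, the 6 endothelium markers to 13.8 and 9.13 against 24.1 and 26.9 CPM with none called, and the subdermal prepuce and pericyte lists each had 1 marker called higher. The macrophage list had 1 marker called lower. The 7 smooth muscle markers, of the cells with the highest Itga8 levels, summed to 142.7 and 202.6 against 243.1 and 120.7 CPM with none called. In the Foxl2 and Sall3 cluster they summed to 244.8 and 327.3 against 296.6 and 172.9 CPM, with 1 called lower. In the Gli1 and Hhip cluster 1 was called higher and 1 lower. The part of any of these in the Itga4 and Itga8 values was not tested. The 12 dissociation stress genes summed to 8709 and 12160 against 8993 and 10790 CPM, and none was called.

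Outside the periurethra-like cells, Itga4 was highest in 4 populations that are not mesenchyme of the penis proper. In DTA- libraries it was at 224.5 and 195.9 CPM in macrophage-like cells, 49.6 and 141.4 CPM in neural-like (glial) cells, 61.2 and 99.9 CPM in pericyte-like cells and 88.65 and 20.8 CPM in mast cell-like cells. Macrophage-like cells stood above the rest, while of the 19 neighbor pairs in the order of 20 populations 17 overlapped between their DTA- libraries. Itga4 gave no UMI in the DTA- epithelium-like cells, 0 of 110 and 0 of 94, which allows a share of up to 2.73% and 3.19% of cells with a UMI in the 2 libraries (counting error only). In cluster 3, mesenchyme led by Sostdc1, Nts and Wnt16, Itga4 was called again, at 13.0 and 14.1 CPM in DTA- and 48.7 and 27.9 CPM in DTA+ libraries (log2 fold change 1.47 ± 0.30). Without DTA+ replicate 1 this value was 1.02 and not called. Proliferative-like cells had 5.73 and 8.11 against 18.1 and 19.8 CPM, without overlap and not called (1.43 ± 0.28). Mast cell-like cells, at 120.4 and 97.05 CPM in DTA+ libraries (1.02 ± 0.60), were also higher without overlap and not called. So was cluster 6, at 5.45 and 13.05 against 21.1 and 14.8 CPM (1.23 ± 0.69). Its values rest on 2 and 2 UMIs in DTA- against 83 and 45 UMIs in DTA+ libraries. After thinning, 1.39% and 2.13% of its DTA- cells had an Itga4 UMI, against 1.92% and 1.36% of its DTA+ cells, which overlap. Macrophage-like cells, at 170.1 and 143.6 CPM in DTA+ libraries, went slightly the other way (-0.41 ± 0.25, not called). Of the 9 populations where Itga4 passed the filter, 5 were higher without overlap, 1 was lower without overlap and 3 overlapped. The 5 include cluster 6 with its 2 and 2 DTA- UMIs. Among all genes tested in periurethra-like cells 47.6% did not overlap, a share not counted in the other populations.

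**Figure D2:**
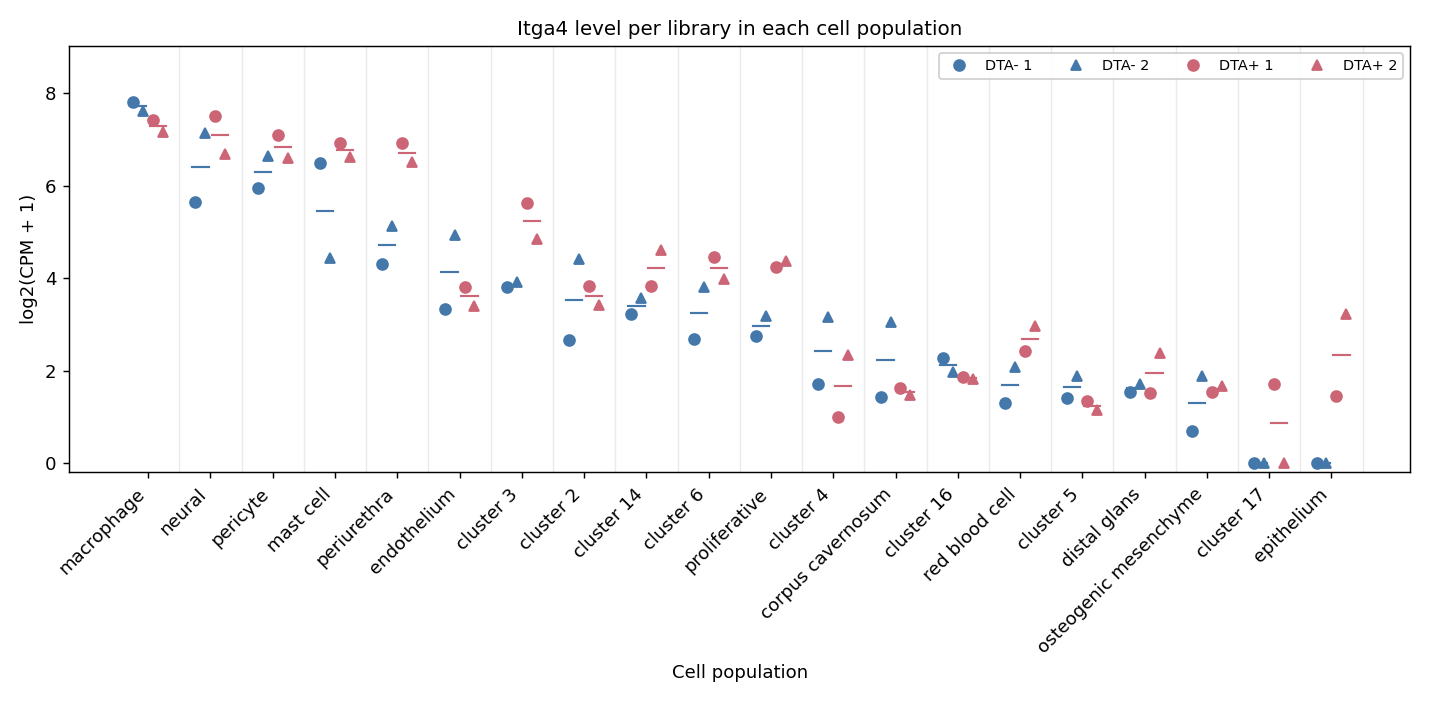
Itga4 level per library in the 20 tested populations, as log2(CPM + 1), ordered by the mean of the DTA- libraries. Populations with a name are marker-defined (-like in the text), and symbols and bars are as in the plot of periurethra-like cells. The DTA+ libraries lie above the DTA- libraries in periurethra, cluster 3, proliferative, mast cell and cluster 6 cells, among others. The cluster 6 values rest on 2 and 2 DTA- UMIs. Macrophages are highest at 224.5 and 195.9 CPM in DTA-.

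Npnt gave the most called differences of the 9 genes, in 9 of the 18 populations where it passed the filter, 8 higher and 1 lower in DTA+ cells. Over the 20 tested populations 3.13% of all gene and population pairs were called. The 9 genes were chosen on differences in these data, so the count is a description. In corpus cavernosum-like cells, the Sox9 and Col2a1 mesenchyme of the erectile body, it was at 95.4 and 73.7 CPM in DTA- and 254.7 and 280.7 CPM in DTA+ libraries (log2 fold change 1.66 ± 0.16). The gap between genotypes was wider than the spread within either. An Npnt UMI was found in 23.5% and 17.9% of DTA- and 34% and 39% of DTA+ cells of this population, or 9.3% and 5.3% against 19.5% and 21.2% after thinning. Macrophage-like cells of DTA- libraries, taken as cells that should lack Npnt, had an Npnt UMI in 0 of 69 cells (which allows a share of up to 4.35%) and in 1.33% of cells, at medians of 4719 and 4443 UMIs. In DTA+ libraries the share in these cells was higher, 15.6% and 7.04% at medians of 4815 and 5284 UMIs. After thinning the share was 0% in both DTA- libraries and 2.6% and 4.23% in DTA+ libraries. The difference in Npnt level in macrophage-like cells was not called. Whether these UMIs are background was not tested, so the DTA- shares are no measure of the background in DTA+ cells. In distal glans-like cells (Msx1, Msx2, Inhba) Npnt was at 44.1 and 36.3 against 108.6 and 104.9 CPM (1.39 ± 0.16), with thinned shares of 4.08% and 4.35% against 8.29% and 9.75%.

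The same direction held in 6 further populations. Cluster 4, led by Coch, Meox2 and Wif1, had 117.8 and 86.6 against 276.4 and 234.5 CPM (log2 fold change 1.32 ± 0.17). Cluster 5, led by Thbd and Ptgis, had 128.6 and 143.8 against 335.4 and 300.7 CPM (1.22 ± 0.16). Cluster 16, with Hand2 among its leading genes, had 152.7 and 67.3 against 340.8 and 281.9 CPM (1.53 ± 0.27). Clusters 14 (Rprm, Wnt10a, Notum) and 17 (Kera, Nefl) were at 26.3 and 13.75 against 51.0 and 71.4 CPM (1.51 ± 0.33) and at 60.0 and 43.3 against 116.9 and 116.7 CPM (1.19 ± 0.24). In each of these 5 clusters both DTA+ libraries lay above both DTA- libraries. In periurethra-like cells 47.6% of all genes did not overlap, a share not counted in these 5 clusters. Markers of other populations moved beside Npnt in several of them. The 6 distal glans markers summed to 540.7 and 420.2 against 661.2 and 826.4 CPM in corpus cavernosum-like cells, to 827.1 and 711.0 against 1167 and 1378 CPM in cluster 4 and to 512.0 and 449.1 against 835.0 and 925.2 CPM in cluster 5, with 3 of 6 called higher in each. In distal glans-like cells themselves 3 were also called higher, with 2 in cluster 16, 1 in cluster 17 and 0 in cluster 14, where the sums were 2083 and 2076 against 2544 and 2993 CPM. In cluster 5 the 7 smooth muscle markers summed to 112.9 and 129.8 against 32.2 and 26.8 CPM, with all 3 that were tested called lower. There 4 of 12 dissociation stress genes were called lower, as were 2 in corpus cavernosum-like cells and 1 in cluster 14. In cluster 4, 2 stress genes were called higher and 2 lower, with sums of 3500 and 8944 against 12030 and 8324 CPM. None was called in distal glans-like cells or clusters 16 and 17. In corpus cavernosum-like cells 2 mast cell, 2 red blood cell and 3 proliferative markers were also called lower, with the 6 red blood cell markers at 2197 and 1412 against 1195 and 246.0 CPM. The part of these in the Npnt values was not tested. Leaving out any 1 library kept the call in corpus cavernosum-like and distal glans-like cells and in clusters 4, 5 and 16. In cluster 16 the value was 2.21 without DTA- replicate 1 and 1.03 without DTA- replicate 2, and 1.39 and not called after thinning. In cluster 14 it was 2.23 without DTA- replicate 1 and the call was lost without DTA+ replicate 2 (1.2), and in cluster 17 it was lost without DTA- replicate 2 (0.96), DTA+ replicate 1 (1.19) or DTA+ replicate 2 (1.18).

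Npnt was also higher in the red blood cell-like and macrophage-like populations, which were not named by mesenchymal markers. Red blood cell-like cells had 35.2 and 33.3 CPM in DTA- and 96.0 and 94.85 CPM in DTA+ libraries, from 24, 31, 66 and 28 UMIs (log2 fold change 1.48 ± 0.27, called). In these cells 3 of the 6 red blood cell markers were called higher, summing to 273000 and 329200 against 454100 and 392800 CPM. Mesenchymal markers were present in the same sums. The 6 distal glans markers summed to 794.2 and 703.2 against 962.9 and 1399 CPM, with none called. The 6 general prepuce markers summed to 344.3 and 422.5 against 538.2 and 447.1 CPM, with none called. The part of all these markers in the Npnt result was not tested. The Npnt call was lost without DTA- replicate 1 (1.51) or DTA+ replicate 1 (1.44). Macrophage-like cells had 0 and 1 Npnt UMI in DTA- and 15 and 17 UMIs in DTA+ libraries, the latter in 12 of 77 and 5 of 71 cells, which was not called. The part of free mRNA or doublets in these values was not tested. For red blood cell-like cells the value was 1.35 and not called with the cells of highest doublet score left out, and 0.92 and not called with no upper UMI limit. Epithelium-like cells, a class that makes nephronectin in the kidney, overlapped between genotypes, at 208.0 and 203.8 CPM in DTA- and 202.7 and 244.5 CPM in DTA+ libraries (0.12 ± 0.23).

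Npnt was lower in DTA+ cells in clusters 2, 3 and 6. Cluster 3 had 46.1 and 115.2 against 39.5 and 19.5 CPM (log2 fold change -1.51 ± 0.34, called), and its DTA- libraries differed by more than the gap between the genotypes at their nearest. The call was lost without DTA- replicate 2 (-0.70) or DTA+ replicate 2 (-1.04). Smooth muscle markers in cluster 3 summed to 235.8 and 462.6 against 149.8 and 174.8 CPM, with 3 of the 4 tested called lower. There 2 distal glans markers and 1 pericyte marker were called higher and 1 red blood cell marker lower. Their part in the Itga4, Itga11 and Npnt values of cluster 3 was not tested. Cluster 2, led by Irx1 and Col7a1, had 58.3 and 50.8 against 29.2 and 19.3 CPM (-1.11 ± 0.24) and cluster 6, led by Gria2 and Stmn2, 29.99 and 39.2 against 18.6 and 11.8 CPM (-1.08 ± 0.46), neither called. Cluster 6 held 72 and 47 DTA- cells against 938 and 662 DTA+ cells, with 11 and 6 DTA- Npnt UMIs. The highest DTA- level was in osteogenic mesenchyme-like cells (Runx2, Sp7), at 299.4 and 223.6 CPM against 331.2 and 476.5 CPM in DTA+ libraries (0.62 ± 0.18, not called), followed by epithelium-like cells. Of the 19 neighbor pairs in the order of DTA- Npnt levels, 14 overlapped.

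**Figure D3:**
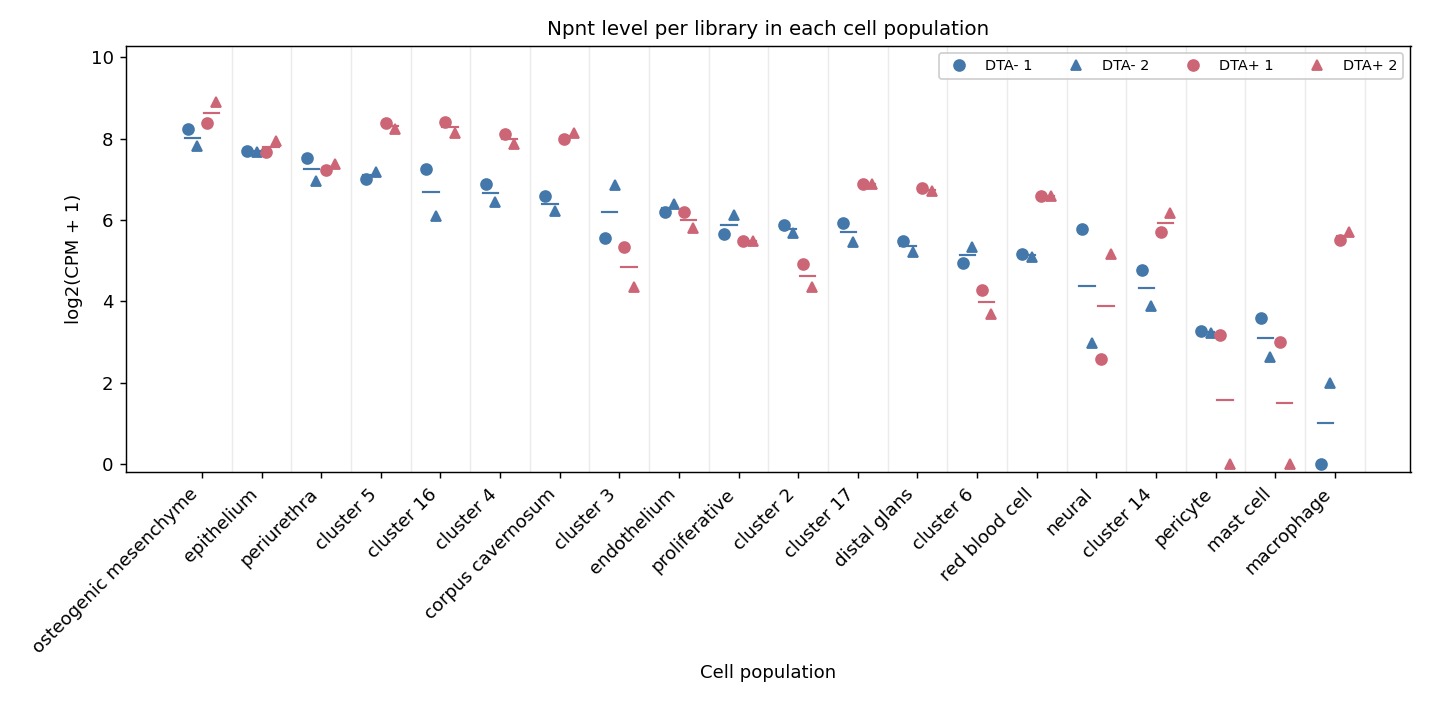
Npnt level per library in the 20 tested populations, as log2(CPM + 1), ordered by the mean of the DTA- libraries, with symbols and bars as in the plot of periurethra-like cells. DTA+ libraries lie above DTA- libraries in corpus cavernosum, distal glans, clusters 4, 5, 14, 16 and 17, red blood cells and macrophages, below them in clusters 2, 3 and 6 among others, and overlap with them in periurethra and epithelium.

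Vcam1 went in different directions in different populations. In corpus cavernosum-like cells it was at 93.7 and 96.5 CPM in DTA- and 59.8 and 54.4 CPM in DTA+ libraries (log2 fold change -0.73 ± 0.17, called). It was not called without DTA+ replicate 1, at -0.80, without DTA+ replicate 2, at -0.67, or with no upper UMI limit, at -0.58. In osteogenic mesenchyme-like cells it was at 24.3 and 48.8 against 14.3 and 13.2 CPM (-1.30 ± 0.34). This call was lost without DTA- replicate 2 (-0.84), DTA+ replicate 1 (-1.35) or DTA+ replicate 2 (-1.23), and the value was -0.49 with no upper UMI limit, -0.64 at a clustering resolution of 0.4 and -0.51 at 1.2. In cluster 6 it was higher, at 24.5 and 19.6 against 83.8 and 62.2 CPM (1.67 ± 0.38), but the DTA- values rest on 9 and 3 UMIs, and the call was lost without DTA- replicate 1 (1.93), DTA+ replicate 1 (1.45) or DTA+ replicate 2 (1.89). Cluster 6 had 2 general prepuce, 1 periurethra and 1 smooth muscle marker called higher and 3 dissociation stress genes called lower. In osteogenic mesenchyme-like cells 2 distal glans markers and 4 stress genes were called higher. There 1 general prepuce marker, 1 osteogenic marker and 1 stress gene were called lower. The part of these in the Vcam1 values was not tested. The DTA- level of Vcam1 was highest in cluster 17 at 116.2 and 141.2 CPM.

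Among the receptor subunits, Itga11 passed the filter in 4 populations and was lower in DTA+ cells in 3 of them. Corpus cavernosum-like cells, its highest population, had 39.5 and 43.6 CPM in DTA- and 22.8 and 19.0 CPM in DTA+ libraries (log2 fold change -0.99 ± 0.21, called, and not called without DTA+ replicate 2, at -0.86, after thinning, at -0.82, or with no upper UMI limit, at -0.70). In cluster 5 it was higher in DTA+ cells, at 3.72 and 4.31 against 6.91 and 9.15 CPM, without overlap and not called (1.02 ± 0.47). Osteogenic mesenchyme-like cells had 28.1 and 35.2 against 14.3 and 18.9 CPM (-0.83 ± 0.29, not called). In cluster 3 Itga11 had 24 and 41 UMIs in DTA- and 2 and 2 UMIs in DTA+ libraries (-2.59 ± 0.58), a call lost without DTA- replicate 2 (-2.53), DTA+ replicate 1 (-2.79) or DTA+ replicate 2 (-2.38). Itgb8 in corpus cavernosum-like cells was at 7.56 and 17.1 against 27.65 and 26.85 CPM (1.14 ± 0.29, called). That call was lost without DTA- replicate 1 (0.69) or DTA+ replicate 1 (1.12) or after thinning (1.34), and the value was 1.85 without DTA- replicate 2.

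The remaining subunits among the members, Itgb1, Itgav and Itga9, were not called in any population. Itgb1 passed the filter in all 20 populations and its log2 fold changes ran from -0.20 to 0.35, with DTA- means between 115 and 713.5 CPM, highest in pericyte-like cells at 647.2 and 779.7 CPM. Itgav ran from -0.49 to 0.48 in 18 populations, with DTA- means between 21.5 and 118.2 CPM. Itga9 passed in 13 populations and was highest in mast cell-like cells at 38.8 and 77.9 CPM and endothelium-like cells at 45.3 and 61.6 CPM. It gave no UMI in any of the 93 to 152 epithelium-like cells per library, which allows a share of up to 3.23% in the smallest. Outside the periurethra-like cells Itga8 had no called difference. Its levels were highest in smooth muscle-like cells, where it was among the 10 leading genes, at 349.5 and 514.0 CPM in DTA- libraries, but that population had 23 and 4 cells in the DTA+ libraries and was not tested. Neural-like cells gave no Itga8 or Itga11 UMI in any library, 0 of 50 to 87 cells, which allows a share of up to 6% in the smallest.

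**Figure D4:**
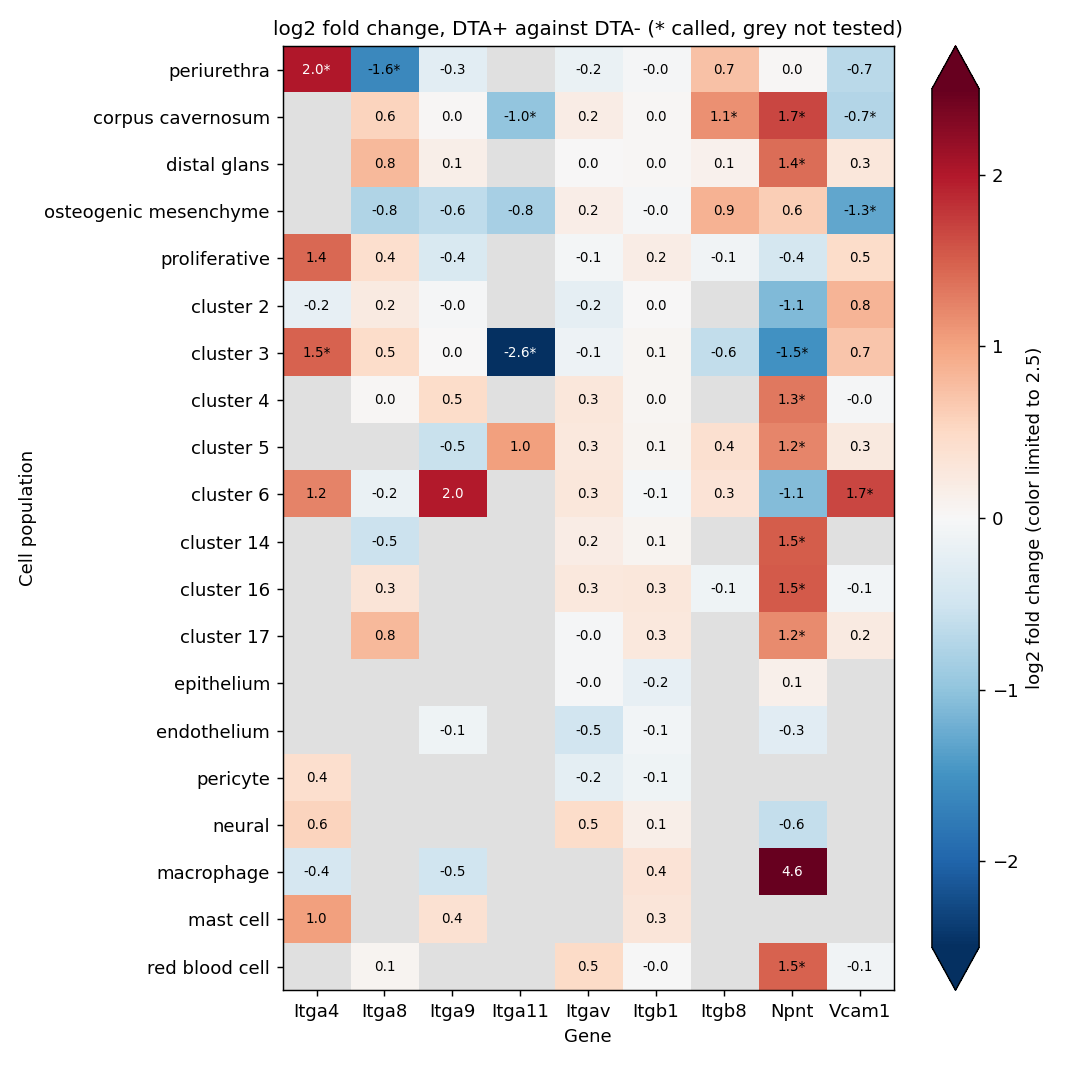
log2 fold change of DTA+ against DTA- cells for each of the 9 genes (columns) in each of the 20 tested populations (rows), red higher and blue lower in DTA+, with the fitted value printed in each cell. An asterisk marks a call at adjusted p under 0.05 and grey a gene that did not pass the filter on low counts. The Npnt column holds 9 of the 18 calls, while the Itgb1, Itgav and Itga9 columns hold none. Of all gene and population pairs 3.13% were called. The values for Npnt in macrophages and Itga9 in cluster 6 rest on DTA- libraries with 0 and 1 UMI and are no measure of size.

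Over the 20 populations, 117 of the 180 member and population pairs passed the filter and 18 were called, 12 higher and 6 lower in DTA+ cells, where 3.13% of all gene and population pairs were called. DESeq2 kept 6 of the 18 calls, which were Itga4 in periurethra-like cells, Npnt in corpus cavernosum-like cells, distal glans-like cells and clusters 4 and 5, and Vcam1 in corpus cavernosum-like cells, and all 18 kept their direction. The share of all genes called in the populations that held a called member was 9.62% in corpus cavernosum-like cells, with 4 members called, and 1.56% in cluster 3, with 3. It was 3.22% in distal glans-like cells, 3.62% in osteogenic mesenchyme-like cells and 0.307% in red blood cell-like cells, with 1 member each. It was 7.57% in cluster 4, 13.1% in cluster 5, 3.63% in cluster 6, 0.489% in cluster 14, 1.14% in cluster 16 and 0.722% in cluster 17, also with 1 member each. With all cells of a library summed, 0.488% of 15977 genes and none of the 9 members were called by edgeR's quasi-likelihood test, while 4 had an unadjusted p under 0.05, as did 15.1% of all genes. DESeq2 called 2 members and 3.45% of all genes, and the likelihood ratio test 2 members and 4.12% of all genes. In these sums Itga4 was at 8.76 and 14.2 CPM in DTA- and 24.0 and 19.2 CPM in DTA+ libraries, and Npnt at 97.0 and 80.7 against 122.9 and 139.8 CPM. Itga11 was at 7.51 and 7.31 against 4.58 and 4.64 CPM and Itgb8 at 5.37 and 7.93 against 10.5 and 10.9 CPM, each of these 4 genes without overlap, where 48.8% of all genes did not overlap.

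Other genes of integrin adhesion were followed as 4 lists with 105 genes in all: other integrin subunits, ligands of the listed integrins, basement membrane partners of nephronectin, and integrin adaptors. In periurethra-like cells, where 3.5% of all genes were called, 77 of the 105 were tested. Of these 77, 3 rose and 4 fell in the edgeR fit across all genes of the population. The median log2 fold change of the 77 was -0.02. The lists were chosen with earlier results of these data known, so the counts are a description. Of 29 ligands tested 2 rose and 2 fell. Tgfbi, a secreted matrix protein that binds integrins, rose from 47.6 ± 4.8 to 158.6 ± 53.6 CPM (SD, n = 2 libraries each, log2 fold change 1.72 ± 0.23 SE, edgeR adjusted p = 0.0032), and Postn, which encodes the matricellular protein periostin, rose from 591.9 to 1054 CPM (0.83 ± 0.18, edgeR adjusted p = 0.033). Tgfb2, a TGF-beta growth factor, fell from 208.3 ± 35.3 to 84.0 ± 3.1 CPM (-1.31 ± 0.16, edgeR adjusted p = 0.0025), and Mfge8, a glycoprotein bound by Itgav receptors, fell by 0.66 on the log2 scale (edgeR adjusted p = 0.046). Of 6 other subunits tested Itga6, of a laminin receptor, rose (1.18 ± 0.26, edgeR adjusted p = 0.035) and Itga1, of a collagen receptor, fell from 65.2 ± 10.4 to 17.6 ± 1.9 CPM (-1.89 ± 0.21, edgeR adjusted p = 0.0014). Of 15 basement membrane partners the laminin chain gene Lama2 fell (-1.32 ± 0.26, edgeR adjusted p = 0.024), and of 27 adaptors none was called.

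The calls of Tgfbi, Tgfb2 and Itga1 held without any 1 library. Mfge8 was lost without DTA- replicate 1 (-0.64), DTA- replicate 2 (-0.69) or DTA+ replicate 2 (-0.55), Postn without DTA- replicate 1 (0.62), and Itga6 (0.94) and Lama2 (-0.92) without DTA- replicate 2. Over all cells none of the 100 pathway genes tested was called by edgeR's quasi-likelihood test, with 15 at an unadjusted p under 0.05, a share like the 15.1% of all genes, and 3 were called by DESeq2 and 3 by the likelihood ratio test. In corpus cavernosum-like cells, where 9.62% of all genes were called, 11 of 76 rose and 5 fell. Among them, chosen after their values were seen, were Fras1, which encodes a basement membrane protein that binds nephronectin (8.48 ± 0.11 to 26.1 ± 6.1 CPM, log2 fold change 1.62 ± 0.29, edgeR adjusted p = 0.00094), and Postn (1.19 ± 0.17, edgeR adjusted p = 8.06e-05). Edil3, a ligand of Itgav receptors, fell (-1.55 ± 0.28, edgeR adjusted p = 0.0012), with -0.82 without DTA- replicate 2.

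The genes whose DTA- levels across the 20 populations were most like those of Itga4, among 10510 genes that reached 20 CPM in some population, were Tln1, Litaf, Rap1a, Rab8b and Slc25a45, with Pearson correlations of log2 values from 0.866 down to 0.852. Tln1 encodes talin, which links integrin tails to actin, and Rap1a a small GTPase that promotes integrin activation. For Npnt they were Zfp523, Chd3, Ptpn14, Nt5c3b and S100pbp, from 0.866 down to 0.847. These are descriptions over populations drawn from the same libraries.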

How the data were processed

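The authors deposited UMI counts per gene and cell from Cell Ranger (version 4.0.0 per the file headers and the submitters' processing notes) against mm10 with eGFP and tdTomato added, unnormalized. All 4 libraries were used. The study's limits were applied to cells: 1000 to 7500 UMIs, with mitochondrial and Hba counts each up to 25% and Hbb counts up to 50%. Clustering used Seurat 5.3.0 (2000 variable genes, 30 components, resolution 0.8) over all libraries, with no doublets removed: Scrublet (scanpy 1.11.5) called 0 or 1 cell per library, so as an alternative the highest scores were left out at 0.8% per 1000 cells. A cluster was named where a class had 3 or more enriched markers (5% of cells, log2 fold of 0.8 over other cells with 10 CPM added), at least 1 of them among its 25 leading genes, and no other class had more among the 10 leading genes. These limits, and leaving a prepuce-like cluster without Akap12 unnamed, were set after the clusters were seen.

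Sums of the deposited counts, 1 per library in each population, went into edgeR 4.0.16 (scaling by TMM, filterByExpr, quasi-likelihood test, genotype as the only term, Benjamini-Hochberg adjustment within a population). The study describes likelihood ratio tests between genotypes per cell population, and mixed models with replicate as a random effect for single-cell expression. Here edgeR's likelihood ratio test on library sums, without a random effect, is an alternative, and it does not repeat the study's test. Other alternatives were DESeq2 1.42.0, the replicate number as a block, other depths and other clusterings. In simulated tables where 200 genes carried a log2 change of 1.5, 89.5% of these were called in the periurethra-like sums of 11093 genes and 93% over all cells, 15986 genes. Every gene was drawn with the same spread between libraries (dispersion 0.02) and no difference in cell make-up. These shares therefore check the fit only and do not give its power in the real data, where a gene not called may still differ. Shares and floors of 3 counts cover counting error only. The 9 genes, the marker lists and the pathway lists were chosen with earlier results of these data known. Named were all 9 genes, called pathway genes averaging 10 CPM or more in the periurethra-like cells and over all cells (up to 5 per direction), and the 5 genes most like Itga4 and Npnt.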

Additional observations from a re-analysis of the deposited data

Results flagged for a closer look

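Npnt had called differences of opposite sign in different populations, with no overlap between genotypes in any of them. In periurethra-like cells 47.6% of all genes did not overlap, a share not counted in these populations. The log2 fold change of DTA+ against DTA- cells was 1.66 in corpus cavernosum-like cells, 1.39 in distal glans-like cells, 1.32 in cluster 4, 1.23 in cluster 5, 1.51 in cluster 14, 1.53 in cluster 16, 1.19 in cluster 17 and 1.48 in red blood cell-like cells, but -1.51 in cluster 3. Vcam1 was at 1.67 in cluster 6 and at -0.73 in corpus cavernosum-like and -1.30 in osteogenic mesenchyme-like cells. The differences between populations were not tested.

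The tdTomato feature, which no comparison uses, gave 3579 UMIs in DTA+ replicate 1 and 3140 UMIs in DTA+ replicate 2, against 0 in both DTA- libraries.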

How the results depend on the processing

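Over all cells, 0 members and 0 pathway genes were called by edgeR's quasi-likelihood test, against 2 and 3 by DESeq2, 2 and 3 by the likelihood ratio test, 2 and 3 without the filter on low counts, and 1 and 0 with cells thinned to 1000 UMIs. The shares of all genes called were 0.488%, 3.45%, 4.12%, 2.8% and 1.52% in these settings, in that order. The number of called pairs, 18, became 6 by DESeq2, 7 after thinning, where 13 of the 18 still passed the filter, and 12 to 20 with 1 library left out, counting pairs called only then. Of the 18 themselves 10 to 15 were still called with 1 library left out, 6 by DESeq2 and 7 after thinning. In the periurethra-like cells 2 members were called, 1 by DESeq2 and 1 after thinning, and 1 to 3 with 1 library left out, and Itga4 was called under all 15 alternatives with a log2 fold change from 1.62 to 2.46. The 7 pathway genes called there were 4 after thinning and 4 to 15 with 1 library left out, and over all cells 0 to 1 were. Itga6 was at 0.77 after thinning. All 18 called pairs kept their direction wherever they had a value, and the causes of the changes were not tested. Without an alternative 78 genes were called over all cells and 388 in periurethra-like cells, against 21 to 1668 and 201 to 909 under alternatives. The same-numbered libraries did not deviate together (correlations of -0.326 over all cells and -0.0633 in periurethra-like cells), so the replicate numbers were not taken as pairs. With the replicate block the counts were 0 members and 0 pathway genes over all cells, 2 and 9 in periurethra-like cells and 21 pairs. Of all genes 2.1% were then called over all cells and 6.76% in periurethra-like cells. With the pairing crossed, chosen after seeing the data, the counts were 4 and 12, 2 and 8, and 22. The shares of all genes called were then 10.4% over all cells and 4.47% in periurethra-like cells.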
